A study of Schizosaccharomyces pombe with 22 samples.

Results

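The slide described here carried DNA from fission yeast (Schizosaccharomyces pombe) cells whose Pst3 protein was fused to green fluorescent protein (Pst3-GFP), and it was read on probes for intergenic regions (IGRs) and on probes for open reading frames (ORFs). It was chosen as the samples whose titles set an immunoprecipitate (IP) of pst3-GFP cells against beads, which gave 4 samples of the 22 in the series. They are channel 7-5 and channel 7-3 of slide 7, each once on IGR probes and once on ORF probes. The rest of the series holds expression arrays and other chromatin arrays, among them 2 arrays of Pst3-GFP IP over wt input, which are used once below.

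All 4 samples are labelled with the tagged strain, and none is labelled as untagged cells. The labels give pst3-GFP input as the Cy3 source and Pst3-GFP beads as the Cy5 source of every one of the 4 samples, whereas the titles speak of IP. The names of the deposited IGR files of both channels mention wt input in place of beads, so whether DNA of untagged cells was on the slide is not settled. Nothing says whether the 3 and the 5 of the channel names stand for the dyes, so which material is in which channel is not settled. A value of 7-5 over 7-3 is therefore given as such, and no direction of enrichment is read from it. The titles give 1 slide number for both probe sets, and whether these lay on 1 glass or on 2 is not stated. There was no replicate slide, culture or dye swap. Most probes were printed in 2 spot sets on the slide, whose spread is technical. The number of arrays limits the precision, and no test between conditions was possible.

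Pst3 is one of the fission yeast homologs of Sin3, the scaffold around which the class I histone deacetylase Clr6 and its partners assemble. Such complexes remove acetyl groups from histones at promoters and in coding regions. In a chromatin IP on arrays, sheared DNA bound by a protein is recovered on beads, labelled and hybridised. Beads without the specific antibody, or DNA taken before the IP, serve as the comparison, since some DNA sticks to beads in any case.

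Far fewer probes gave signal above background in 7-5 than in 7-3. A probe is called above background here where its signal was at least 2-fold its own local background in every spot set and its net signal exceeded the 95th percentile of empty or missing spots of that set. In channel 7-5, 153 of 4940 IGR probes (3.10%) and 252 of 4869 ORF probes (5.18%) were above background. In channel 7-3, 1366 IGR probes (27.7%) and 1994 ORF probes (41.0%) were. The 2-fold rule asks for a larger net signal in 7-5, whose local background was higher. By the empty or missing spots alone, 11.8% and 9.33% of IGR probes passed in the 2 spot sets of 7-5, and 67.9% in 7-3. For ORF probes these shares were 12.2% and 10.8% in 7-5, and 86.0% and 86.2% in 7-3. How bright a probe is depends also on its sequence and on the amount of DNA spotted, so the order of brightness is not an order of DNA amounts.

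The sequences that carry the main observations are the regions upstream of a few genes, shown because their IGR probes were among the brightest of 1 channel or belong to the genes for Pst3 and Clr6. The probes' own ends are not given in the files. Shown instead, from the RefSeq assembly ASM294v3, are up to 250 bases that end at the annotated gene start, or the whole gap to the next gene where it is shorter. Capitals mark a TATA box (TATAAA).
npt1: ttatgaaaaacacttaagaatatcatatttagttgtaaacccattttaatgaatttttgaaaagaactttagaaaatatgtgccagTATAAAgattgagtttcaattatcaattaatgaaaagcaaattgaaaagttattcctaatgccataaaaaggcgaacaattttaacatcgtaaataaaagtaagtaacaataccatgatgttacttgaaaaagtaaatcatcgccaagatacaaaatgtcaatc
vps4: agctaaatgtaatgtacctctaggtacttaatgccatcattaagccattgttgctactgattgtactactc
eap1: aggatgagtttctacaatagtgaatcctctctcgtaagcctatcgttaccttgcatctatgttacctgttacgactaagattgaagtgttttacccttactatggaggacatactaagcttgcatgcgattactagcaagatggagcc
pst3: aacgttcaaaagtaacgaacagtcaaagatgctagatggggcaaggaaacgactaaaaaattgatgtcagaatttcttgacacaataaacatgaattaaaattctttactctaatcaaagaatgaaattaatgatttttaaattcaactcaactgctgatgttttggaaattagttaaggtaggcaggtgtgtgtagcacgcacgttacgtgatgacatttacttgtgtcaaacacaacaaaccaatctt
clr6: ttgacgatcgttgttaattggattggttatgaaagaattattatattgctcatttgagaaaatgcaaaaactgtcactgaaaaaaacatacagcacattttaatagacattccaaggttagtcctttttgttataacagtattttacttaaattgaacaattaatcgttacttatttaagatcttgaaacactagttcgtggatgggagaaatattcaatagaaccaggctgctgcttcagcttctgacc

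The region of npt1 lies at chrI:3203599-3203848, plus strand, and its IGR probe had the largest ratio of 7-5 over 7-3. The gap between vps4 and alx1, chrI:817932-818002, plus strand as printed, is 71 bases long and parts 2 genes that are read away from each other. Both of their IGR probes were bright in 7-5. The gap between eap1 and ump1, chrIII:748583-748730, plus strand, is 148 bases long and its eap1 probe had the lowest ratio. The regions of pst3 (chrII:1094742-1094991, minus strand) and of clr6 (chrII:851477-851726, minus strand) were bright in 7-3. GC content ran from 25.2% at npt1 to 41.2% at eap1, with 36.6% at vps4, 33.2% at pst3 and 31.6% at clr6. The motifs searched on both strands were the TATA box, HomolD (CAGTCACA), HomolE (CCCTACCC), a cAMP response element core (TGACGT), a FLEX-like site (GTAAACA), the MluI box (ACGCGT) and a run of 8 adenines (AAAAAAAA). The TATA box of npt1 was the only match in these 5 windows.

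Over all 5112 windows of 250 bases before an annotated coding gene, 44.4% held a TATA box and 2.62% held HomolD, an element known from ribosomal protein promoters of fission yeast. Among the 120 genes whose IGR was above background in 7-5, 42.5% had the TATA box and 3, or 2.50%, had HomolD. Among the 1152 genes whose IGR was above background in 7-3, 39.8% had the TATA box and 46, or 3.99%, had HomolD. HomolE stood in 1 of those 120 windows and in 28 of the 1152, or 2.43%, against 1.55% of all windows. The CRE core was in 7.50% and 5.56% of the windows of these 2 groups and in 5.52% of all, the FLEX-like site in 13.3% and 14.8% against 14.8%, the MluI box in 3.33% and 2.69% against 2.64%, and the adenine run in 16.7% and 15.4% against 18.9%. These shares are descriptions of letters in the windows.

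The channels differed in the level of the glass as well as in the number of bright probes. Median signals on IGR probes were 1027 and 1023 in the 2 spot sets of 7-5, against median local backgrounds of 1065 and 1062. In 7-3 the median IGR signal was 151 over a background of 121. ORF probes gave 1084 and 1085 over 1077 and 1082 in 7-5, and 211 and 214 over 122 and 122 in 7-3. The typical probe thus lay at its background in 7-5 and above it in 7-3. For IGR probes 62.7% and 61.1% of spots had a signal at or below their background in 7-5 and 12.2% in 7-3. For ORF probes these shares were 53.7% and 53.4% in 7-5 and 3.33% and 3.70% in 7-3.

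On the log2 scale the signal over background had a median of -0.06 in 7-5 and 0.33 in 7-3 on IGR probes. On ORF probes the medians were -0.02 in 7-5 and 0.80 in 7-3. The highest value was 5.72 in 7-5 and 7.68 in 7-3 for IGR probes, and 6.15 in 7-5 and 9.14 in 7-3 for ORF probes. In 7-5 the signal of a spot followed its own background, with Spearman correlations from 0.73 to 0.78 across probes, and in 7-3 it did not, with values from 0.02 to 0.03. The probe of mrpl25, a mitochondrial ribosomal protein gene, lay lowest at -4.48 in 7-5 because its local background stood at the ceiling of 65535 in both spot sets.

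**Figure D1:**
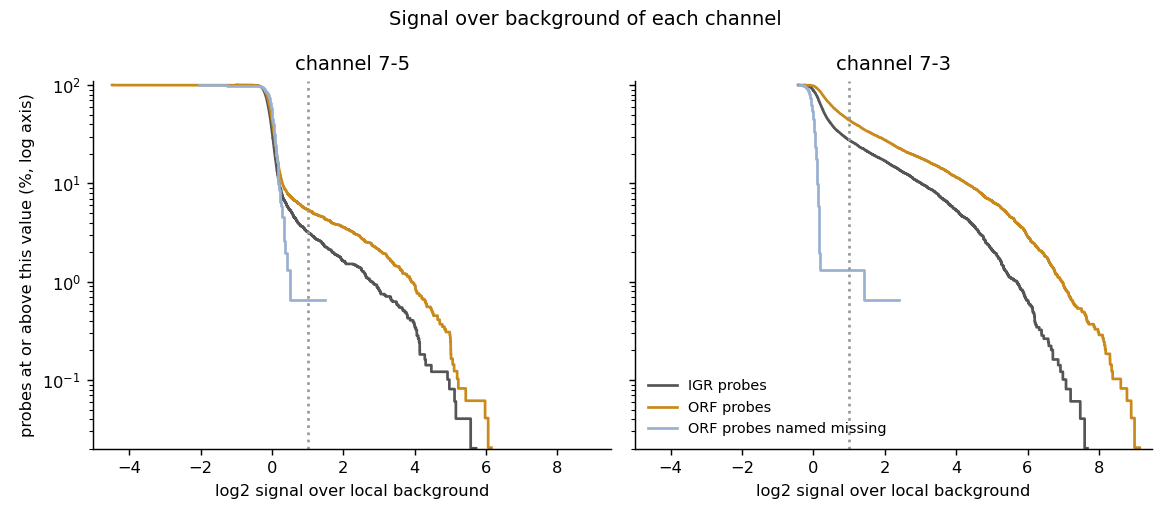
Share of probes (percent, log axis) whose log2 signal over local background reaches the value on the x axis, for channel 7-5 (left) and channel 7-3 (right), with IGR probes in grey, ORF probes in ochre and ORF probes named missing in blue. The dotted line marks 2-fold over background, which 3.20% of IGR probes reached in 7-5 and 27.7% in 7-3.

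The spot sets ranked the bright probes alike. In 7-5, 165 and 164 IGR probes were at least 2-fold over background in the 2 sets, and 153 were so in both. For ORF probes in 7-5 the counts were 266 and 266, with 252 in both. For ORF probes in 7-3 they were 2143 and 2165, with 1994 in both. The Pearson correlation between spot sets was 0.89 for IGR probes and 0.92 for ORF probes in 7-5, and 0.98 for ORF probes in 7-3. Spearman's correlation, which gives the many probes near background full weight, was 0.35, 0.42 and 0.94. The 2 deposited IGR files of 7-3 were identical and were counted as 1 spot set. Its spot flags matched those of spot set 1 of 7-5 for each of 5146 names, and those of spot set 2 for 86.3%.

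Control spots behaved differently in the channels. The translation elongation factor probe ef1-b, printed 65 times in set 1 of the ORF array, had a log2 signal over background of 0.02 ± 0.16 in 7-5 and 3.98 ± 0.86 in 7-3 (mean and SD over spots). Its single spots ran from 1.73 to 5.69 in 7-3, so the same probe spread over several log2 units across the slide. A dilution series of that probe stayed between -0.13 and 0.23 in 7-5. At 1, 2, 4, 8, 16 and 32 times it gave 5.03, 3.92, 2.92, 1.55, 1.65 and 1.28 in 7-3. The 1307 empty spots averaged -0.01 ± 0.19 in 7-5 and -0.01 ± 0.15 in 7-3. The E. coli and luciferase probes were not above background in either channel.

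Most probes that were bright in 7-5 were bright in 7-3 too, but few of those bright in 7-3 were bright in 7-5. Of the IGR probes above background, 98 were so in both channels, 55 in 7-5 alone and 1268 in 7-3 alone. That is 64.1% of the 7-5 set and 7.17% of the 7-3 set. Of the ORF probes 165 were above background in both, 87 in 7-5 alone and 1829 in 7-3 alone, which is 65.5% of the 7-5 set and 8.27% of the 7-3 set. Across all probes the Spearman correlation of the channels was 0.20 for IGRs (n = 4940) and 0.18 for ORFs (n = 4869), with slide and spots shared by both.

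**Figure D2:**
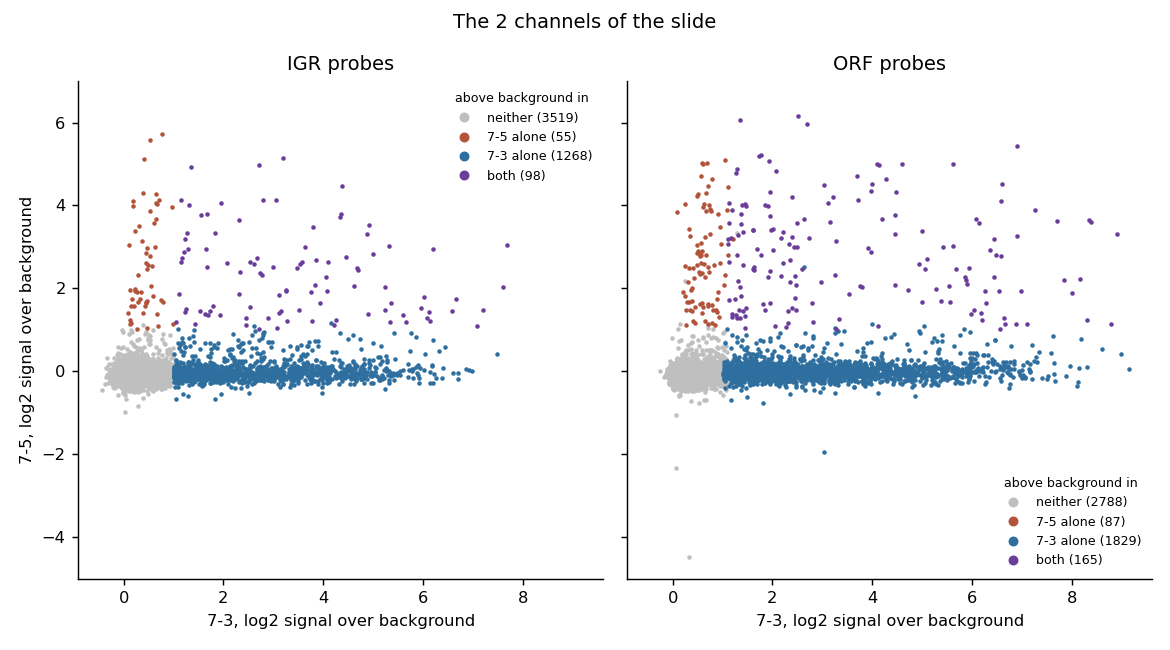
Log2 signal over background of each probe in 7-5 (y axis) and 7-3 (x axis), for IGR probes (left) and ORF probes (right), coloured by the channel in which the probe was above background. Most bright probes lie along 1 axis, with 98 IGR and 165 ORF probes above background in both channels.

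In channel 7-5 the brightest IGR probes were those of elp2, npt1, dpm2, vps4 and the 18S rDNA promoter. The elp2 probe, for a subunit of the Elongator complex, had signals of 47050 and 48631 in 7-5, which are 5.64 and 5.80 log2 units over background, and 200 in 7-3, which is 0.77. The npt1 probe, for nicotinate phosphoribosyltransferase, had 54584 and 54419 in 7-5 (5.54 and 5.60) and 185 in 7-3 (0.54). Both were high in 7-5 and below the 2-fold line in 7-3. The dpm2 probe, for a regulator of dolichol-phosphate mannosyltransferase, had 5.02 and 5.29 in 7-5 and 3.20 in 7-3.

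The brightest ORF probes of 7-5 were gcd1, wtf11, SPCC569.03, mde5 and spa2. The probes of gcd1, annotated as glucose-6-phosphate 1-dehydrogenase, and of wtf11, a member of the wtf meiotic driver family, read 65535 in both spot sets of 7-5, the ceiling of the scale, so their values there are lower bounds. In 7-3 gcd1 gave 2.50 and 2.55 and wtf11 gave 1.29 and 1.39. The alpha-amylase gene mde5 was bright in both channels, with 5.36 and 5.50 in 7-5 and 6.92 and 6.89 in 7-3.

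In channel 7-3 the brightest IGR probes were sst1, rpb9, aps2, gas2 and mil1. The probe of sst1, a calcium permease gene, had 2.93 and 3.17 in 7-5 and 7.68 in 7-3. That of rpb9, for a subunit of RNA polymerase II, had 1.95 and 2.13 in 7-5 and 7.60 in 7-3. Both were above background in both channels. The brightest ORF probes were cmt1, ggt1, mga2, SPBC18H10.09 and edc1. The probe of cmt1, for catechol O-methyltransferase, had 0.15 and -0.03 in 7-5 and 9.13 and 9.16 in 7-3, and 1 of its 7-3 spots was at 65535. That of mga2, an ankyrin repeat transcription factor gene, was above background in both, with 3.04 and 3.60 in 7-5 and 8.87 and 8.94 in 7-3.

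The ratio of the channels was taken as the log2 of the 7-5 signal minus that of the 7-3 signal, centred on the median of all probes of the array, with a call where it passed 2-fold in each spot set and in their mean. By that rule 91 IGR probes were higher in 7-5 (1.84%) and 1042 lower (21.1%), and 262 ORF probes were higher (5.38%) and 1339 lower (27.5%). For IGR probes the same 7-3 readings entered the ratios of both spot sets. Passing in each set therefore repeats only the 7-5 reading there. The balance of the 2 directions depended on the scaling. With loess in place of median centring the counts were 233 higher and 276 lower IGR probes, and 371 higher and 242 lower ORF probes. With the background subtracted they were 1527 and 1401 IGR probes, and 1264 and 1241 ORF probes. Before centring, the median ratio was 2.64 and 2.63 for IGR probes and 2.33 and 2.32 for ORF probes, a difference of the channels' overall levels.

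The ratio followed the 7-3 signal more than that of 7-5. Its Spearman correlation with 7-3 signal over background was -0.76 on IGR probes and -0.84 on ORF probes, against -0.01 and 0.05 with that of 7-5. The 7-3 signal is a part of the ratio and most 7-5 signals lay at background, so these values are no separate finding. The ratio also followed the local background of 7-5, with 0.39 and 0.30. With most 7-5 signals at background, a call of lower asks for a raised 7-3 signal. Of the probes called lower in 7-5, 1017 of 1042 IGRs and 1339 of 1339 ORFs were above background in 7-3, which that rule largely fixes. Of those called higher, 72 of 91 IGRs and 158 of 262 ORFs were above background in 7-5, while 19 and 104 were above background in neither channel. The median 7-5 local background of the probes called higher was 1111 for IGRs and 1300 for ORFs, and over all probes 1065 and 1077. What part of those calls the background makes up was not tested. Where 1 channel lies at its background, the ratio gives only a bound on the difference.

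The IGR probes with the largest ratios were npt1 at 5.57, elp2 at 5.26, vps4 at 4.81, pcf2 at 4.51, ysp2 at 4.41, alx1 at 4.36, sdj1 at 4.23 and mmc1 at 4.12. They belong to genes of different roles. Vps4 is an AAA ATPase, Alx1 holds a BRO1 domain, Pcf2 is a subunit of the chromatin assembly factor CAF, Ysp2 is annotated as a leucyl aminopeptidase and Sdj1 as a glyoxalase. In 7-5 pcf2 had 4.07 and 4.13 log2 units over background, ysp2 3.77 and 4.21, sdj1 3.97 and 4.09, and mmc1 4.21 and 4.03. In 7-3 the same probes lay at 0.19, 0.18, 0.68 and 0.70, all below 2-fold.

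The IGR probes with the lowest ratios were eap1 at -7.58, SPBC713.09 at -6.94, pus7 at -6.55, pdb1 at -6.46, rcf2 at -6.45, oca8 at -6.27, gal7 at -6.21 and arf1 at -6.17. The eap1 probe, for an eIF4E-associated protein, had signals of 455 and 423 in 7-5, which are 0.13 and -0.06 over background, and 13469 in 7-3, which is 6.92. The others lay between -0.34 and 0.18 in 7-5 and between 5.95 and 6.99 in 7-3. Their products include a pseudouridine synthase (Pus7), the beta subunit of pyruvate dehydrogenase E1 (Pdb1), a cytochrome c oxidase subunit (Rcf2) and the galactose enzyme Gal7.

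Among ORF probes the largest ratios were those of wtf11 at 5.46 or more, tup1 at 5.21, utp18 at 4.95, rit1 at 4.90, meu13 at 4.73, arb2 at 4.67, tps2 at 4.61 and sam1 at 4.50. The probe named tup1 matched no annotated gene. Rit1 modifies the initiator tRNA, Arb2 binds Argonaute, and Tps2 and Sam1 are enzymes of trehalose and S-adenosylmethionine metabolism. The arb2 probe had 23267 and 23767 in 7-5 (4.18 and 4.39) and 189 and 181 in 7-3 (0.54 and 0.49). The lowest ORF ratios were edc1 at -8.30, ggt1 at -8.12, cmt1 at -7.93 or lower, arg82 at -7.89, pof7 at -7.35, slu7 at -7.29 and rpl2802 at -7.20, with 1 unannotated probe among the 8 lowest. Their 7-5 values ran from -0.43 to 0.63 and their 7-3 values from 7.83 to 9.16.

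Whether the ORF and the IGR of a gene went together was examined in the 4272 genes with 1 probe of each kind. The shares with both bright lay close to those of all genes. In 7-5, 214 ORFs and 118 IGRs were above background and 7 genes had both, which is 3.27% of the ORFs and 5.93% of the IGRs, where 2.76% of all IGRs and 5.01% of all ORFs were above background. In 7-3, 1747 ORFs and 1127 IGRs were above background and 517 genes had both, or 29.6% of the ORFs and 45.9% of the IGRs, with 26.4% and 40.9% over all genes. The IGR share in 7-3 was 24.2% under ORFs below 1 log2 unit, 26.1% under ORFs of 1 to 3 and 33.5% under ORFs of 3 and above. The Pearson correlation across genes was 0.04 in 7-5, 0.09 in 7-3 and 0.06 for the ratio. All points share 1 slide number, and whether ORF and IGR probes lay on the same glass is not stated.

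**Figure D3:**
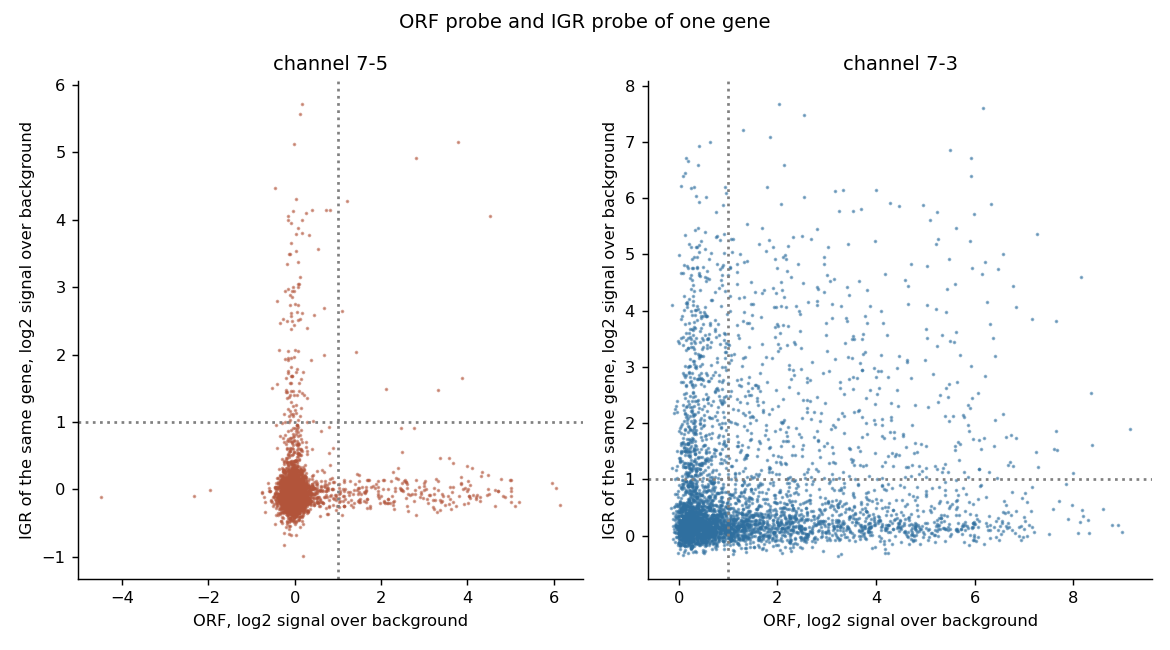
Log2 signal over background of the IGR probe (y axis) and the ORF probe (x axis) of each of 4272 genes in channel 7-5 (left) and channel 7-3 (right), with dotted lines at 2-fold over background. In 7-5 the bright probes form 2 arms with 7 genes above background in both, and in 7-3 there are 517 such genes.

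The ratios of ORF and IGR had the same sign in 52.2% of 4272 genes, with 1145 both above and 1086 both below the median. The 95% exact binomial interval, 50.7% to 53.7%, gives counting error only and treats genes as independent. They are not, since the ratios of divergent IGRs correlated at 0.39 (n = 1046 pairs), so the error may be understated. No test of agreement is read from the interval. Of the ORFs 49.9% and of the IGRs 51.5% lay above the median of their probe set. From these shares alone, multiplied as if unrelated, 49.9957% of genes would have the same sign. Both probes were called higher in 7-5 for 3 genes, eme1, yox1 and rsa1, and both lower for 277. That is 1.37% of the ORFs called higher and 23.4% of those called lower. Among all 4272 genes 1.85% of IGRs were called higher and 20.2% lower, so both shares lay near those of all genes. Eme1 is a subunit of a Holliday junction resolvase, Yox1 a corepressor of the cell cycle factor MBF, and Rsa1 a ribosome assembly protein. The eme1 IGR had 4.76 and 5.08 in 7-5 and 1.35 in 7-3, and its ORF 2.65 and 2.97 in 7-5 and 0.60 and 0.72 in 7-3. For yox1 the IGR had 4.36 and 4.20 in 7-5 and 0.64 in 7-3, and the ORF 1.02 and 1.40 against 0.48 and 0.35. The annotated gap before eme1 is 2911 bases long. That before yox1 is 51487 bases and is the stretch taken here as the centromere of chromosome II. Rsa1 had an ORF at 0.39 and 0.98 in 7-5, which was not above background, and with normexp its ORF ratio was 0.79.

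The genes with both probes lowest in ratio were pus7, crr1, nnf1, mpg1, rpl2802, spt3, arf1 and dph5, and their ORF ratios were -5.74, -5.45, -4.97, -5.15, -7.20, -4.65, -4.61 and -5.72. Their IGR ratios ran from -6.55 for pus7 to -4.55 for dph5. Nnf1 is a kinetochore protein, Spt3 a subunit of the acetyltransferase complex SAGA, and rpl2802 encodes a protein of the large ribosomal subunit. In 7-3 the 8 IGRs lay between 4.60 and 6.86, and in 7-5 between -0.19 and 0.45. With loess the ORF ratios of spt3 and arf1 turned to 0.14 and 0.41. The calls of the crr1 and nnf1 ORFs, at -0.44 and -0.23, and of the mpg1, dph5 and arf1 IGRs, at -0.09, -0.74 and -0.95, ended as well. With background subtraction the spt3 ORF was at -0.73.

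Opposite calls were found in 76 genes, of which 53 had the ORF higher and the IGR lower in 7-5 and 23 the reverse. Over all 4272 genes 5.13% of ORFs were called higher and 20.2% of IGRs lower, and 27.7% of ORFs lower and 1.85% of IGRs higher, and nothing beyond these shares is read from the count. The npt1 IGR was the highest of its array in ratio at 5.57, while the npt1 ORF had -7.11, with 0.27 and -0.02 in 7-5 and 7.93 and 8.03 in 7-3. For ysp2 the IGR had 4.41 and the ORF -5.88. For alx1 they were 4.36 and -2.97. With loess the ORF ratios of ysp2 and alx1 were -0.99 and -0.43, which ends these opposite calls. Turned the other way were wtf11 with an IGR at -3.79, mib1 with -3.99 against an ORF at 3.79, and arb2 with -2.75 against an ORF at 4.67. In these 6 genes the ratios of the probe sets had opposite signs.

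Probes that adjoin along the chromosome did go together where they faced the same gap. Gene positions and strands were taken from ASM294v3, and since the probes' own ends are not given, overlap of the probes was not tested. Each IGR probe was assumed to lie in the gap upstream of the gene it is named for. The IGR probes of divergent genes face 1 shared gap, except where the annotated genes overlap. They had a Pearson correlation of 0.19 in 7-5 and 0.46 in 7-3 (n = 1046 pairs). IGRs of tandem and of convergent neighbours, which face different gaps, had -0.05 and -0.02 in 7-5 and -0.01 and 0.01 in 7-3. In pairs with a gap of up to 659 bases, the median, the divergent IGRs correlated at 0.35 in 7-5 and 0.64 in 7-3 (n = 523), and with a longer gap at 0.02 and 0.19. Pairs of overlapping genes were counted with the short gaps. Spearman's correlation over the short gaps was 0.16 in 7-5 and 0.56 in 7-3. In 7-3, 160 pairs had both IGRs above background, which is 57.6% of the 278 left and 55.6% of the 288 right ones. Over all 1046 pairs 26.6% of the left and 27.5% of the right IGRs were above background.

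In 7-5 there were 4 divergent pairs with both IGRs above background, and they are named here after their values were seen. That is 15.4% of the 26 left and 12.9% of the 31 right IGRs above background. Over all pairs 2.49% of left and 2.96% of right IGRs were. The vps4 and alx1 probes, over a gap of 71 bases, had 5.09 and 5.15 for vps4 and 4.31 and 4.30 for alx1. In 7-3 they lay at 0.42 and 0.39. The second pair was sst1 with rps802 (372 bases between them), a gene of the small ribosomal subunit, which had 1.70 and 1.27 in 7-5 and 5.24 in 7-3. The others were SPCC162.03 with SPCC162.02C, over 341 bases, and uvi31 with erg6, whose annotated genes overlap and leave no gap between them. The bright 7-5 probes of pcf2, ysp2, sdj1 and mmc1, whose gaps are 665 bases or longer, had divergent neighbours at 0.27, -0.11, -0.27 and -0.04. Over a shorter gap of 305 bases, rpb9 had 1.95 and 2.13 in 7-5 and its divergent neighbour pro3 only 0.47. These picked examples do not show how likeness depends on the gap. The eap1 probe, over 148 bases, and its neighbour ump1 were both bright in 7-3, at 6.92 and 5.92.

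By Pearson's correlation an ORF was most like the IGR at its other end. The IGR named for a tandem neighbour downstream would, by the same assumption, lie between the 3' end of the ORF and the next gene. Its correlation with the ORF was 0.08 in 7-5 and 0.20 in 7-3 (n = 1826). Spearman's values for these pairs were 0.01 and 0.19, against 0.04 and 0.09 with the ORF's own IGR, so by rank the order held in 7-3 and not in 7-5. Pearson's correlation with the ORF's own upstream IGR was 0.04 and 0.09, with the IGR of a divergent neighbour 0.04 and 0.07 (n = 2159), with that of a tandem gene upstream 0.01 and 0.02 (n = 1806) and with that of a convergent neighbour -0.03 and 0.01 (n = 2189). With a gap of at most 298.5 bases, the median, the downstream IGR correlated with the ORF at 0.18 in 7-5 and 0.34 in 7-3 (n = 913), and with a longer gap at 0.02 and 0.07. Spearman's correlation over the short gaps was 0.01 in 7-5 and 0.28 in 7-3, so in 7-5 the likeness lay in the few bright probes. Over the short gaps 38.6% of downstream IGRs were above background in 7-3 where the ORF was, and 15.5% where it was not. For the ORF's own IGR the same shares were 30.0% and 24.6% over gaps up to 433.5 bases.

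In 7-5 an ORF and its downstream IGR were both above background in 7 of 1826 pairs, which is 7.78% of the 90 such ORFs, where 2.68% of the IGRs were above background. Named after their values were seen, pwp1 gave 4.40 and 4.23 and the IGR of its downstream neighbour prp16 gave 3.34 and 3.42. The ORF of rit1 had 4.84 and 5.20 and the IGR of mug113 had 1.54 and 1.48. The correlation of an ORF with its own IGR differed by gene length. In genes up to 1810 bases long, the median, it was 0.06 in 7-5 and 0.18 in 7-3, and in longer genes 0.03 and 0.002 (n = 2129 and 2127).

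**Figure D4:**
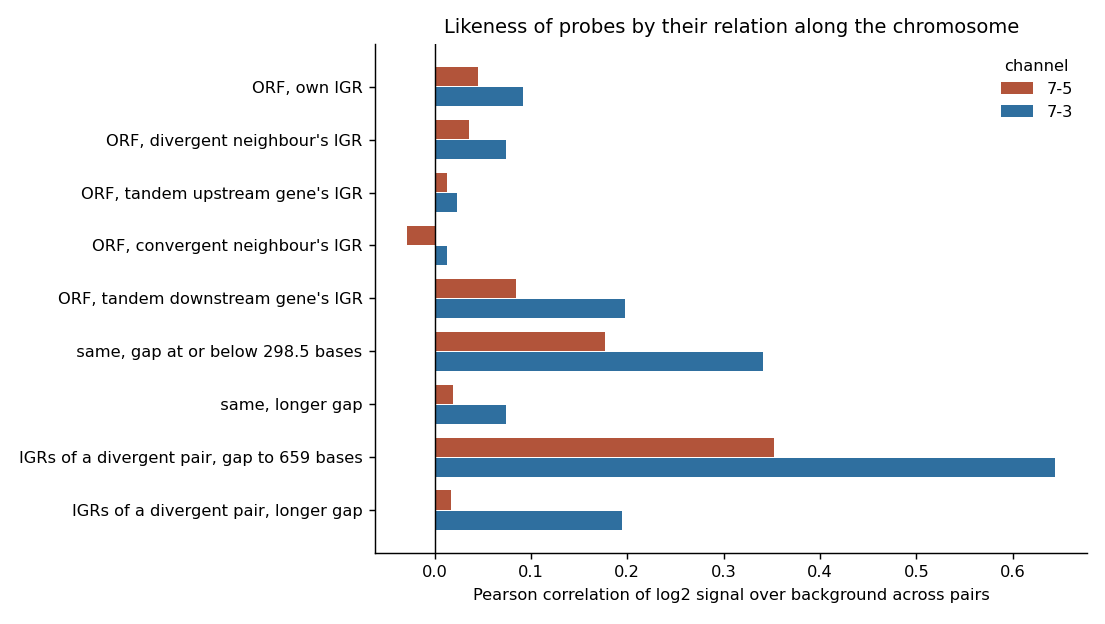
Pearson correlation (x axis) of log2 signal over background between pairs of probes, by their relation along the chromosome (y axis), in channel 7-5 (red) and channel 7-3 (blue). The highest values are those of divergent IGRs over gaps up to 659 bases, 0.35 in 7-5 and 0.64 in 7-3.

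The gene of the tagged protein and those of its partners were read next. The pst3 IGR probe had signals of 829 and 1037 in 7-5, which are 0.03 and 0.09 over background, and 947 in 7-3, which is 3.04, so its ratio was -2.67. The IGR of chs2 on the other side of the same gap gave 1.45 in 7-3. The pst3 ORF was near background, at 0.09 and -0.25 in 7-5 and 0.69 and 0.61 in 7-3. The clr6 IGR had -0.27 and -0.17 in 7-5 and 4.09 in 7-3, with a ratio of -3.50, and the clr6 ORF lay at background in both channels. With loess the IGR ratios of pst3 and clr6 were -0.60 and -0.38, which ends both calls. The paralogs pst1 and pst2 were not above background in any of the 4 readings, and the pst1 ORF had a ratio of 1.10 with 0.81 and 0.46 in 7-5, which was 0.80 with loess and 0.82 with normexp.

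Of the Sin3 and Clr6 complexes, 0 of 17 IGRs and 0 of 18 ORFs were above background in 7-5, where 3.10% and 5.18% of all probes were. In 7-3 these complexes had 6 (35.3%) and 7 (38.9%), near the 27.7% and 41.0% of all probes. Called higher in 7-5 were 0 IGRs and 1 ORF, and called lower were 5 IGRs and 7 ORFs, where 21.1% of all IGRs and 27.5% of all ORFs were. The ORF of sds3, a member of this list, had 0.14 and -0.38 in 7-5 and 7.58 and 7.47 in 7-3 and a ratio of -7.09. Of the other histone deacetylases, 0 of 12 IGRs were above background in either channel. Of their 10 ORFs 1 was above background in 7-5 and 5 in 7-3, and 1 was called higher and 3 lower. The 1 called higher was hst4, a sirtuin gene, with 4.36 and 4.11 in 7-5, 0.49 and 0.47 in 7-3 and a ratio of 4.29. Genes of heterochromatin and RNA interference had 1 of 28 IGRs and 1 of 29 ORFs above background in 7-5, the ORF being arb2, and 8 and 13 in 7-3.

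Genes of ribosome synthesis were read on both probe sets, where 3.10% of all IGRs and 5.18% of all ORFs were above background in 7-5, and 27.7% and 41.0% in 7-3. Large ribosomal subunit genes had 2 of 76 IGRs and 4 of 69 ORFs above background in 7-5, and 25 and 44 in 7-3. Small subunit genes had 2 and 6 of 54 in 7-5, and 28 and 28 in 7-3. The median small subunit IGR lay at -0.03 in 7-5 and at 1.16 in 7-3. For rps3002 the IGR had -0.02 and -0.04 in 7-5 and 6.60 in 7-3. RNA polymerase I genes had no probe above background in 7-5 and 6 of 21 IGRs and 12 of 20 ORFs in 7-3, among them rpa2 with an ORF at 0.11 and 0.11 in 7-5 and 4.16 and 4.19 in 7-3. Nucleolar and rRNA processing genes had 2 of 119 IGRs and 6 of 121 ORFs in 7-5, and 27 and 46 in 7-3.

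Genes of glycolysis and fermentation were read as a list of enzymes of sugar use. None of its 21 IGRs was above background in 7-5 and 15 were in 7-3, with 13 called lower in ratio against 21.1% of all IGRs. Its IGR median was -0.01 in 7-5 and 1.26 in 7-3. The pgm1 IGR, for phosphoglucomutase, had 0.35 and 0.03 in 7-5 and 5.71 in 7-3, and that of tpi1, for triosephosphate isomerase, 0.15 and -0.10 in 7-5 and 4.18 in 7-3. The ORFs of that list were above background in 1 of 20 in 7-5 and 10 of 20 in 7-3. In the hexose transport list, 1 of 15 ORFs was above background in 7-5 and 13 in 7-3. Of all ORFs 5.18% and 41.0% were. The 1 in 7-5 was gcd1, annotated as a dehydrogenase and not as a transporter, with its 7-5 readings at the ceiling. Of the 14 IGRs of the list 0 were above background in 7-5 and 5 (35.7%) in 7-3, against 27.7% of all IGRs. The ght6 ORF had 0.11 and 0.20 in 7-5 and 6.62 and 7.43 in 7-3. For core histones 0 of 10 IGRs were above background in 7-5 and 7 were in 7-3, the highest being hhf2 at 1.83.

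The other lists are given by their IGRs, where 3.10% of all IGRs were above background in 7-5 and 27.7% in 7-3. Above background in 7-5 were 1 of 30 nuclear pore, 0 of 35 proteasome, 2 of 29 stress response and 0 of 29 heat shock genes. In 7-3 the same lists had 4, 8, 10 and 8. Above background in 7-5 were also 0 of 26 iron and copper, 1 of 44 nitrogen starvation and mating, 1 of 9 thiamine and 5 of 156 meiosis genes, and in 7-3 these had 10, 8, 1 and 34. The meiosis ORFs had 10 of 142 in 7-5 and 58 in 7-3, where 5.18% and 41.0% of all ORFs were above background. Nothing particular to a list is read from such counts.

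**Figure D5:**
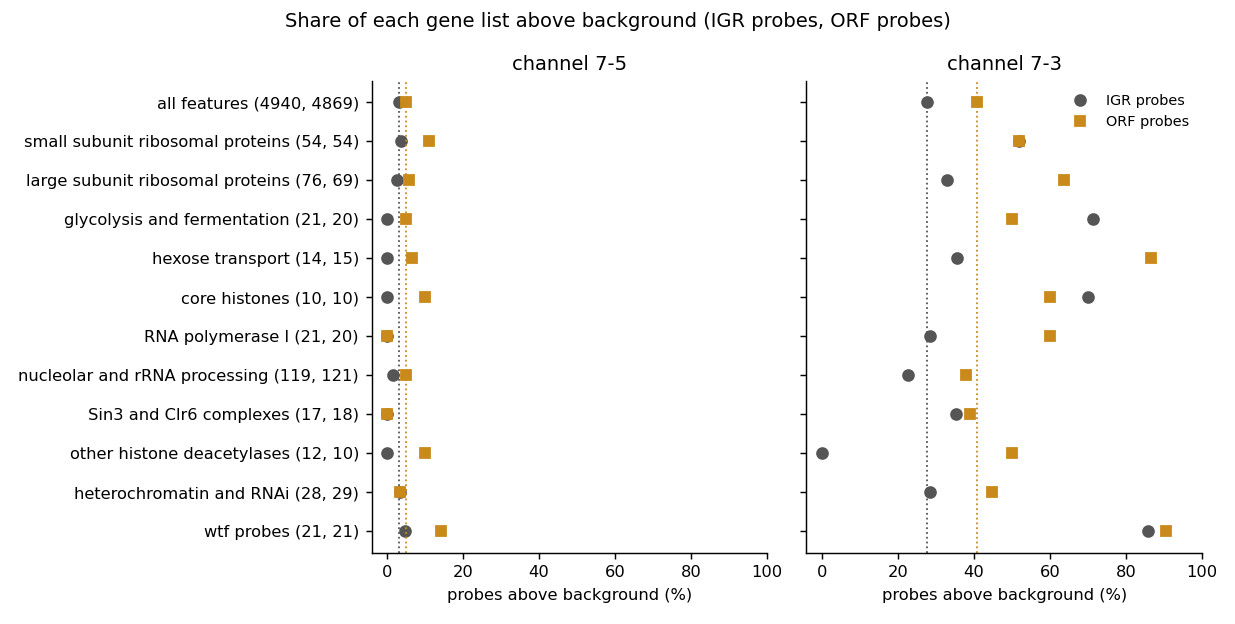
Percent of IGR probes (circles) and ORF probes (squares) above background in channel 7-5 (left) and channel 7-3 (right) for each gene list, with the number of IGR and ORF probes in brackets. Dotted lines mark all probes, at 3.10% and 5.18% in 7-5 and at 27.7% and 41.0% in 7-3.

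Repeated families share sequence, so a probe of 1 copy also takes up DNA of the others. Over all probes, 3.10% of IGRs and 5.18% of ORFs were above background in 7-5, and 27.7% and 41.0% in 7-3. The wtf genes, which encode meiotic drivers and their antidotes, had 1 of 21 IGRs and 3 of 21 ORFs above background in 7-5, and 18 and 19 in 7-3. Their ORF median was 0.23 in 7-5 and 3.80 in 7-3. The wtf13 ORF was above background in both channels, with 3.99 and 4.25 in 7-5 and 6.46 and 6.70 in 7-3. Of the Tf2 retrotransposons 0 of 12 ORFs were above background in 7-5 and 11 in 7-3, where they ranged from 1.38 to 4.06.

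Of the probes named for centromere repeats and cores, 2 of 10 were above background in 7-5 and 4 in 7-3. These and the probes below are IGR probes, of which 3.10% were above background in 7-5 and 27.7% in 7-3. The outer repeat probe dg1 had 1.24 and 1.35 in 7-5 and 2.45 in 7-3, and the partial dhII probe had 1.14 and 1.23 in 7-5 and 5.34 in 7-3. The core probes cnt1, cnt2 and cnt3 gave no more than 0.44 in 7-5, and 0.09, 0.30 and -0.04 in 7-3. The 18S rDNA promoter probe had signals of 22659 and 23642 in 7-5, which are 4.91 and 5.03, and 2.72 in 7-3. A second probe of the same name gave 0.59 and 0.77 in 7-5 and 1.90 in 7-3, so the bright 7-5 value did not recur in its repeat. Of the 18 tRNA probes 0 were above background in 7-5 and 5 in 7-3, and of the 4 probes named for 5S rRNA genes 0 in 7-5 and 3 in 7-3.

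Probes printed again under the same name with a repeat suffix give the spread between spots of 1 name. The abc1 IGR gave 0.07 and its repeat 2.46 in 7-3, and the abc1 ORF 4.86 and 0.37. The longigrmatmc IGR, of the mating-type locus, gave 2.33 and 1.96 in 7-5, and the matmc ORF 2.85 and 2.51. The gpd1 IGR gave 2.44 and 0.97 in 7-5, and 4.70 and 2.64 in 7-3. The matmi IGR gave 2.63 and 1.86 in 7-5, and 2.53 and 2.31 in 7-3, and the rpl2001 ORF gave 1.72 and 1.66 in 7-3. Some pairs were alike and others differed, in both channels. Whether the repeats hold the same DNA is not given.

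By position, the outer 100 kb of chromosomes I and II held 93 IGRs, of which 5 were above background in 7-5 and 40 in 7-3. Of its 91 ORFs 10 were above background in 7-5 and 38 in 7-3. The outer 100 kb of chromosome III held 61 IGRs, with 4 above background in 7-5 and 22 in 7-3, and 59 ORFs, with 7 in 7-5 and 24 in 7-3. Within 50 kb of a centromere 4 of 131 IGRs were above background in 7-5 and 40 in 7-3. Beside these counts, 3.10% of all IGRs and 5.18% of all ORFs were above background in 7-5, and 27.7% and 41.0% in 7-3. Of 3 mitochondrial ORFs, cox2 had 3.87 and 4.17 in 7-5 and 0.76 and 0.69 in 7-3, while cob and cox1 were not above background in 7-5. By GC content of the annotated region the Spearman correlation was 0.04 and 0.04 in 7-5 and 0.18 and 0.17 in 7-3, for 3654 IGRs and 4605 ORFs. The length of the region gave 0.02 and 0.03 in 7-5 and 0.04 and 0.06 in 7-3.

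A reference intensity that the authors deposited with each probe, whose making is not described, had a Spearman correlation of 0.14 and 0.15 with the 7-5 signal over background on IGR and ORF probes, and of 0.43 and 0.43 with that of 7-3. The signals of the 2 arrays of Pst3-GFP IP over wt input correlated with the IGR signal of 7-5 at 0.06 and 0.04, with that of 7-3 at 0.36 and 0.37, and with each other at 0.51 (n = 4940). By signal over background the values were 0.14 and 0.13 for 7-5 and 0.33 and 0.25 for 7-3. With every signal taken over the reference intensity they were 0.07 and -0.08 for 7-5 and 0.08 and -0.34 for 7-3. Both sides of these last values share the reference as denominator, and the median 7-3 signal lay little above its background. No loss or reversal of likeness is therefore read from them. On the first of those arrays the median log2 signal over background was 7.76 for the 98 IGRs above background in both channels of the beads slide, 6.17 for those in 7-5 alone, 6.28 for those in 7-3 alone and 5.12 for those in neither. On the second array the medians were 1.33, 0.71, 0.74 and 0.48. The probes are the same on all these arrays, so differences between probes in DNA amount enter each of these values.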

How the data were processed

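DNA of pst3-GFP cells was read on IGR and ORF arrays, numbered as 1 slide. Per the file headers, each file the authors deposited holds 1 channel of 1 spot set, with the median intensity of signal and of local background, a flag of unstated meaning and a reference intensity. The labels cite a published protocol for chromatin IP on arrays. For scanner, software and build the sources used here name nothing. The authors' deposited value table holds log2 values with a floor of -6.64. Its column medians were -6.64 and -6.64 for IGR probes and -6.64 and -0.53 for ORF probes in 7-5 and 7-3, and its scale, centring and direction stay unknown. Its 2 IGR columns were identical in all 10239 rows, so it gave no IGR ratio.

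Signals were used as given. Log2 signal over background and the log2 ratio of 7-5 over 7-3, median centred per spot set, were averaged over spot sets. Probes named missing and controls (208 IGR and 178 ORF names) were left out. Names were matched to RefSeq ASM294v3 for 4671 of 4940 IGR and 4649 of 4869 ORF probes. With 1 slide no test was made, and probes past 2-fold were counted. The members and lists were chosen with earlier results of these data known. Named probes are the 8 largest and 8 lowest ratios per probe set among called probes, the 5 brightest per channel, up to 8 genes per direction with both probes called alike, up to 6 called opposite, pst1, pst2, pst3 and clr6, and up to 3 members per list. Alternatives were other background corrections, loess, each spot set or their mean alone, dropping dim probes, another IGR and the authors' table. Python 3.11.15 was used throughout, and limma 3.58.1 in R 4.3.3 for normexp and loess.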

Additional observations from a re-analysis of the deposited data

Results flagged for a closer look

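Signal stood above background at a few probes that belong to no comparison. In 7-5 the IGR probe named isp7missing had a log2 signal over background of 1.10 and the ORF probe named spac212.07c_missing had 1.48. In 7-3 that ORF probe had 2.41 and the one named spac2f7.10_missing had 1.42. What missing means in these names is not given. In all, 1 of 208 such IGR probes (0.481%) and 1 of 153 such ORF probes (0.654%) were above background in 7-5, and 0 and 2 (1.31%) were in 7-3. The kanmx- probe, named for a resistance marker, had 0.09 in 7-5 and 1.35 in 7-3. The gal4_bd probe, whose name points to the binding domain of Gal4, had 1.71 in 7-5 and -0.01 in 7-3.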

How the results depend on the processing

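The counts of calls depended on the treatment of the background. IGR probes called higher in 7-5, 91 as reported, numbered 1527 with background subtraction, 298 with normexp and 233 with loess. ORF probes called higher, 262 as reported, numbered 1264 with background subtraction, 162 with normexp, 693 without the dimmest 25% and 1133 in the authors' deposited table. Calls of lower ratio, 1042 IGRs and 1339 ORFs, moved by under 1.5 times except with loess, at 276 and 242. Of the probes called lower as reported, 228 IGRs and 204 ORFs were among these. With background subtraction, 594 of the 1042 and 687 of the 1339 were among those then called lower, and with normexp 886 and 1308. Each spot set alone and the mean alone left the 4 counts within 1.5 times. For IGR probes these settings shared the same 7-3 readings. The IGR counts therefore show stability to the 7-5 spot set only, and spread of the 7-3 IGR readings could not be tested. The ORF to IGR correlation of the ratio, 0.0592, was 0.0223 with background subtraction, 0.0102 with loess, 0.0432 without dim probes and 0.0543 with the divergent neighbour's IGR. The share of like signs stayed between 51.0% and 52.4%. With loess the ORF ratios of spt3 and arf1 became 0.14 and 0.41, and the ORF list medians of RNA polymerase I, large subunit ribosomal proteins, Tf2 and wtf became 0.11, 0.073, 0.18 and 0.24. With background subtraction that of Tf2 became 0.12. The causes were not tested. Of 62 named probes with a call, 62 kept their sign with background subtraction and with normexp, and 60 with loess. At least 2-fold in the mean were 61, 60 and 50 of them, so loess ended 12 calls. The authors' table gave no IGR counts, correlation or share, because its IGR columns are identical and its row numbers were not paired with names. No paired analysis was possible because the slide gives 1 sample per group. The 7-5 channel, with most probes at background, limits what can be seen there.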
